A study of Mus musculus with 131 samples.

Results

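Windows of the mouse genome in which DNA methylation was higher in Actin-RFP embryonic stem cells (ESCs) than in Gjb2-35delG ESCs ran against a loss that affected most of the genome in Actin-RFP ESCs. They were chosen from 200 bp windows of the 19 autosomes with at least 10 cytosine calls in each of 3 bisulfite libraries. A window was taken where the methylation level in Actin-RFP ESCs minus that in Gjb2-35delG ESCs was at least 0.3, or 30 percentage points. This gave 2773 of 6392158 eligible windows (0.0434%), called higher windows below, against 3036729 windows (47.5%) that were at least 30 points lower. Because the difference between the ESC libraries chose the windows, levels in those libraries describe them and support nothing. The MEF level, CpG content, position and surrounding sequence were not used in the choice.

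The study injected ESCs into diploid host embryos, and its 131 samples are all of strain C57BL/6J. The libraries used here are 1 of wild-type mouse embryonic fibroblasts (MEF) at passage 2, 1 of ESCs with the Gjb2 35delG deletion (homozygous per the design text) at passage 7, and 1 of ESCs that carry the Actin-RFP transgene at passage 10. Each cell line was sequenced as 1 library, so there is no replicate spread and no test, and line, genotype and passage cannot be told apart. Single cells of E4.0 blastocysts, 55 RFP cells and 40 GFP cells, give expression of neighbouring genes and are not the cultured lines.

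The libraries held 316759867 calls for MEF, 287946900 for Gjb2-35delG ESCs and 319285707 for Actin-RFP ESCs. Over eligible windows the median level was 84.7% for MEF, 71.8% for Gjb2-35delG ESCs and 38.9% for Actin-RFP ESCs. The starts of 14 measured pluripotency genes had median levels of 28.9% for MEF, 5.52% for Gjb2-35delG ESCs and 3.83% for Actin-RFP ESCs. The starts of 9 fibroblast genes stood at 17.4%, 33.3% and 16.9% in the same order. MEF was above both ESC libraries at 11 of the 14 pluripotency genes and below both at Lin28a and Lin28b, and it was below both at 6 of the 9 fibroblast genes.

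In mammals, methyl groups are placed mainly on cytosines of CpG pairs, by the de novo enzymes Dnmt3a and Dnmt3b, and are copied at replication by Dnmt1 with its partner Uhrf1. Most of the genome is methylated in somatic cells, whereas CpG-rich promoters and active enhancers are mostly free of it. ESCs in culture can lose much of this methylation, depending on the medium and the time in culture, while parts of certain retroviral repeats and imprinted regions are known to keep it better than the rest. In bisulfite sequencing an unmethylated cytosine is read as thymine, so a thymine in the genome at that place is read the same way.

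Few higher windows lay at gene starts, and the promoters of genes with more than 1 such window, or of a Hox gene, are shown where a higher window overlapped the 300 bases from 250 before to 50 after the start. The sequences are from RefSeq on GRCm38.p6, 5′ to 3′ on the strand of the gene, with each CG pair that lies inside a higher window in capitals and other bases in lower case. Hoxd9, a homeobox transcription factor of the axial Hox clusters, is read from chr2:74697513-74697812 on the plus strand. 4930558C23Rik, a protein-coding gene known by its clone name, is read from chr3:95402783-95403082 on the minus strand. Eps8l1, a relative of the actin regulator Eps8, is read from chr7:4460447-4460746 on the plus strand.
Hoxd9: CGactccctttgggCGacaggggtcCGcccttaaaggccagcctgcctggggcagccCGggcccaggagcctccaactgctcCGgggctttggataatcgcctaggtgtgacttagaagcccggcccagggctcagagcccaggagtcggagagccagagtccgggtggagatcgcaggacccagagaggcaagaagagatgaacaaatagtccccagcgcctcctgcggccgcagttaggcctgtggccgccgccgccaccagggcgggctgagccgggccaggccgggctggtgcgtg
4930558C23Rik: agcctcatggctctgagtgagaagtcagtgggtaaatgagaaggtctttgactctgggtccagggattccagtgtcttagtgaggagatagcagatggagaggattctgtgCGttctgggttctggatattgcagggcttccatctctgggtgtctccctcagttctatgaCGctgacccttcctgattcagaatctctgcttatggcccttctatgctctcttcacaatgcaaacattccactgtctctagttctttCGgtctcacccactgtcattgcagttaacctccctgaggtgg
Eps8l1: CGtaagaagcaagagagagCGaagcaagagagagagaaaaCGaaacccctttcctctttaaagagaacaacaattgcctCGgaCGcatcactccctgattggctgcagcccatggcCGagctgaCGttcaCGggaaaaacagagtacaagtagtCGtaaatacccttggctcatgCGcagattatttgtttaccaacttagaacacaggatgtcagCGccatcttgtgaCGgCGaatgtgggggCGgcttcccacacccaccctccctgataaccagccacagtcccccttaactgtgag
The Hoxd9 sequence holds 20 CG pairs, 5 of them in the higher window, and 73.0% of the 31396 autosomal promoter sequences of the table hold fewer. The sequence of Eps8l1 holds 14, all of them in its higher windows, with 63.2% of promoters holding fewer, and that of 4930558C23Rik holds 3 (22.97%). The pair CG reads the same on both strands, and the median promoter sequence of the table holds 7.

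At the upstream start of Eps8l1, the windows chr7:4460401-4460600 and chr7:4460601-4460800 stood at 66.7% and 69.2% for MEF, 28.9% and 17.2% for Gjb2-35delG ESCs and 72.5% and 67.2% for Actin-RFP ESCs, on 37 to 77 calls. Actin-RFP ESCs were thus near the MEF level there and Gjb2-35delG ESCs were low. Around the downstream start of the same gene, 4 windows showed the general pattern, with Actin-RFP ESCs 16.8 to 36.3 points below Gjb2-35delG ESCs. Of the 281 words of 20 bases in the printed Eps8l1 sequence, 200 also occur in the promoter sequence of another gene and 35 occur in those of 5 or more others, up to 20 others. None of the words of the Hoxd9 and 4930558C23Rik sequences does. No repeat annotation was used here, and the part in these levels of reads from similar copies elsewhere in the genome was not tested, here or in the clusters below.

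At 4930558C23Rik, 3 windows within chr3:95402201-95403000 averaged 92.3% for MEF, 25.5% for Gjb2-35delG ESCs and 60.5% for Actin-RFP ESCs. This was the only gene with 3 higher windows in the promoter, here 1000 bp before to 500 bp after a start, and it was named after its values were seen, as were Eps8l1, Klhl7 and the other promoter genes below. At Hoxd9 the window chr2:74697401-74697600 stood at 4.08% for MEF, 6.67% for Gjb2-35delG ESCs and 55% for Actin-RFP ESCs, but on 11 calls in the last. The adjoining windows were at 21.7% and 4.73% in Actin-RFP ESCs, on 84 and 160 calls, so the high level did not extend over the CpG-rich start. Upstream of Klhl7, an adaptor of a ubiquitin ligase, the window chr5:24100001-24100200 read 11.9%, 0% and 55.7% in MEF, Gjb2-35delG ESCs and Actin-RFP ESCs, and the next one upstream 68.7%, 30.9% and 68.8%.

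**Figure D1:**
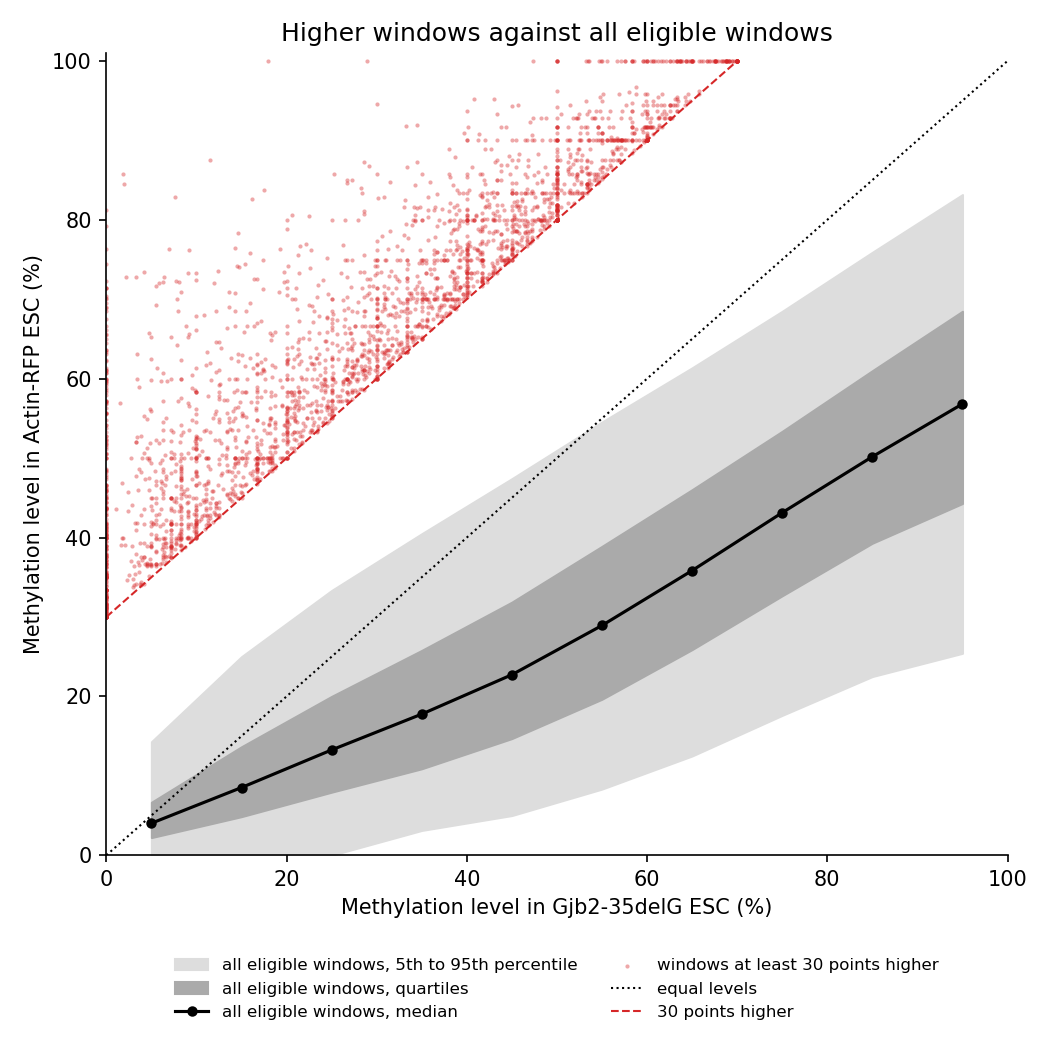
Methylation level of each higher window (red points) in Gjb2-35delG ESC (x axis, %) and Actin-RFP ESC (y axis, %), with the median, quartiles and 5th to 95th percentile of all eligible windows in bins of 10 points of the Gjb2-35delG level. The black median lies below the line of equal levels in each bin from 10% up, and the red points lie above the 95th percentile.

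The general loss was larger in bins of higher Gjb2-35delG level. That level enters the difference, so part of this follows from the binning. Eligible windows at 60 to 70% in Gjb2-35delG ESCs had a median of 35.8% in Actin-RFP ESCs, and those at 90 to 100% had a median of 56.8%, a median difference of -36.7 points. Below 10% in Gjb2-35delG ESCs the medians were 4.17% and 4.03%, so both were low. In bins of the MEF level, which does not enter the difference, the median difference was -1.14 points at 0 to 10%. It was -31.6 points at 70 to 80% and -27.5 points at 90 to 100%. Over all eligible windows the median difference was -29.0 points, and 281878 windows (4.41%) were higher in Actin-RFP ESCs by any amount. The higher windows form the far end of that tail, with 756 at least 40 points higher, 224 at least 50 points and 72 at least 60 points.

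Higher windows had low to middle levels in Gjb2-35delG ESCs, with a median of 28.5% and quartiles of 11.1% and 44.6%. Their median was 66.7% in Actin-RFP ESCs, and their median difference was 35.0 points. A window can only be 30 points higher if its Gjb2-35delG level is 70% or less. The 2874147 eligible windows below 70% had a median difference of -23.7 points. Within bins of the Gjb2-35delG level, 0.354% of windows below 10% and 0.401% of those at 10 to 20% were higher windows, falling to 0.0122% at 60 to 70%. Just inside the threshold, at 30 to 31 points, lay 395 windows with a MEF median of 86.5%, and just outside, at 29 to 30 points, lay 351 with a MEF median of 84.7%.

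In MEF, which took no part in the choice, the median level of the higher windows was 85.7%, against 84.7% for all eligible windows. The higher windows were above 80% in MEF in 1756 cases (63.3%), between 20 and 80% in 933 (33.6%) and below 20% in 84 (3.03%), where all eligible windows had 62.2%, 35.3% and 2.45%. Most were thus methylated in MEF, as are eligible windows in general. Eligible windows below 70% in Gjb2-35delG ESCs had a lower MEF median, 79.4%, with 48.2% above 80%. Those below 10% in Gjb2-35delG ESCs had a MEF median of 17.5%. In 2266 of the higher windows (81.7%) Gjb2-35delG ESCs were at least 30 points below MEF. This compares with 13.6% of all eligible windows and 30.1% of those below 70% in Gjb2-35delG ESCs. Actin-RFP ESCs were below MEF in 73.1% of the higher windows, with a median difference of -13.9 points, and within 20 points of MEF in 53.3%, compared with 14.7% of all. In 121 (4.36%) Actin-RFP ESCs were at least 30 points above MEF as well, compared with 0.226% of all eligible windows. The shares that compare an ESC library with MEF also move with the choice, since it used both ESC libraries.

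**Figure D2:**
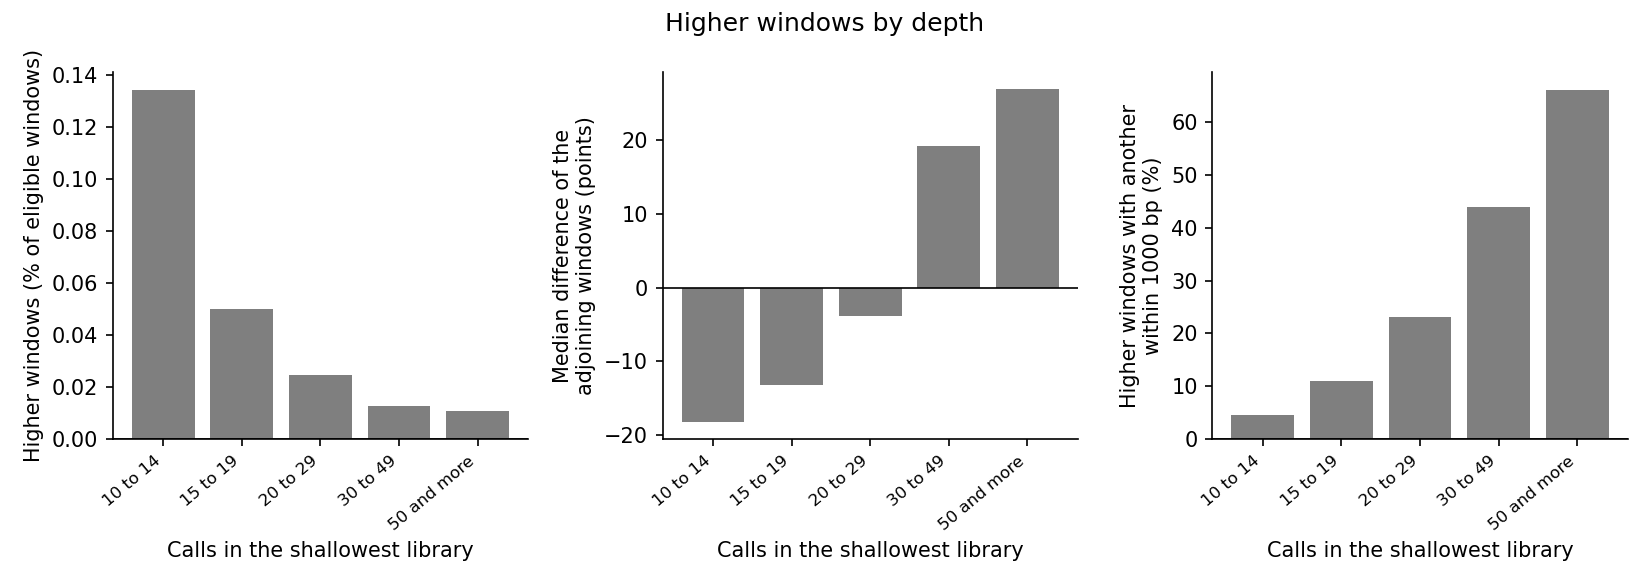
Higher windows by the number of calls in the shallowest of the 3 libraries (x axis of each panel): their share of eligible windows (%), the median difference of the windows that adjoin them (Actin-RFP minus Gjb2-35delG ESC, percentage points), and the share with another higher window within 1000 bp (%). With depth the first falls from 0.134% to 0.0108%, while the second rises from -18.3 to 26.96 points and the third from 4.47% to 66.1%. The adjoining windows include other higher windows, more of them at greater depth.

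The share of higher windows and the levels around them differed with depth. With 10 to 14 calls in the shallowest library, 1498 of 1115382 eligible windows (0.134%) were higher windows. With 50 or more calls, 127 of 1172732 (0.0108%) were. The shallow bin held 54.02% of the higher windows but 17.4% of eligible windows. The exact 95% binomial intervals of the calls in the ESC libraries, which cover counting error only, did not overlap in 624 of the 2773 (22.5%). That share was 5.34% for the shallow windows and 91.1% for the 325 with at least 30 calls in each library, but the intervals use the calls that chose the windows, so it follows from the threshold and the call number.

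The windows on either side, which hold other CpGs, went with this split. Next to all higher windows the median difference was -12.1 points over 3204 neighbours, and it turned to 13.8 points with at least 20 calls in each library. Next to shallow higher windows the median difference was -18.3 points and 17.3% of the neighbours were higher in Actin-RFP ESCs. Next to those with 50 or more calls the median was 26.96 points and 92.3% of the neighbours were higher. Higher windows themselves made up 42.3% of these neighbours, against 2.11% next to shallow ones, so part of this contrast follows from the choice. Among neighbours that were not higher windows the median difference was -14.4 points. On either side it was -18.4 and -19.0 points for shallow higher windows and 12.4 and 14.8 points for those with at least 30 calls. The 325 windows with at least 30 calls had medians of 82.9% for MEF, 18.3% for Gjb2-35delG ESCs and 59.99% for Actin-RFP ESCs. The part of counting error in the shallow windows was not tested.

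**Figure D3:**
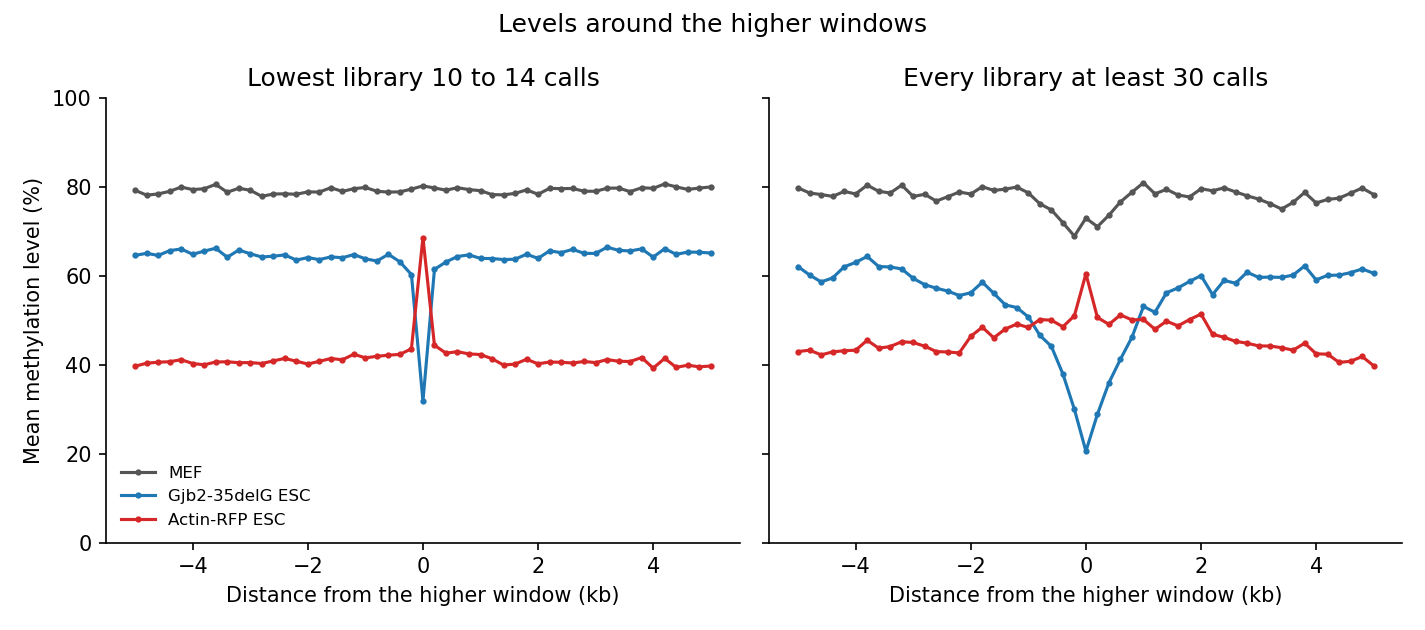
Mean methylation level (y axis, %) in MEF, Gjb2-35delG ESC and Actin-RFP ESC in eligible windows at each distance (x axis, kb) from the higher windows, for those with 10 to 14 calls in the shallowest library and those with at least 30 calls in each library. The windows at each distance include other higher windows. On the left the central window stands apart and the adjoining windows, at -16.7 and -17.1 points, depart less from the -24.9 points at 5 kb upstream; on the right Gjb2-35delG ESC falls over about 1 kb on either side to 20.6% at the centre and Actin-RFP ESC lies above it there.

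Around the 325 deep windows the mean difference was 39.9 points at the window itself, 21.1 and 21.8 points at 200 bp on either side and 10.6 and 13.1 points at 400 bp. It turned to -2.36 and -2.93 points at 1000 bp and reached -19.1 and -20.8 points at 5000 bp. The Gjb2-35delG level formed a trough over this range, from a mean of 62.1% at 5000 bp upstream to 29.97% at 200 bp, while Actin-RFP ESCs stood at 42.97% and 51.02% at these distances. MEF changed less, from 79.8% to 68.9%. Around shallow higher windows the difference went from 36.8 points at the window to -16.7 and -17.1 points at 200 bp and -24.9 points at 5000 bp upstream.

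Higher windows lay near each other more than near eligible windows in general. Another higher window started within 200 bp of 8.73% of them, within 1000 bp of 13.7% and within 50000 bp of 32.8%. The shares of all eligible windows with a higher window at those distances were 0.0501%, 0.229% and 9.75%. Joined where starts were at most 1000 bp apart, 2393 were single, 146 formed 73 pairs and 234 formed 55 clusters of 3 or more. The clusters spanned 600 to 4000 bp with a median of 1200 bp, and higher windows made up 234 of the 318 eligible windows in them.

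The 55 clusters had median levels of 79.7% for MEF, 15.1% for Gjb2-35delG ESCs and 57.0% for Actin-RFP ESCs. In the 5 kb on either side, the medians were 79.8%, 58.5% and 48.7%, and Actin-RFP ESCs were lower than Gjb2-35delG ESCs in 46 of the 55 flanks. The mean MEF level was above 80% in 26 clusters, between 20 and 80% in 25 and below 20% in 4. Actin-RFP ESCs were above MEF in 12 clusters, 3 of them by at least 30 points. Protein-coding genes contained 18 of the clusters, and 1 overlapped a promoter, that of 4930558C23Rik. Of the higher windows in clusters 33.3% lay in protein-coding bodies, below the 45.2% of eligible windows.

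**Figure D4:**
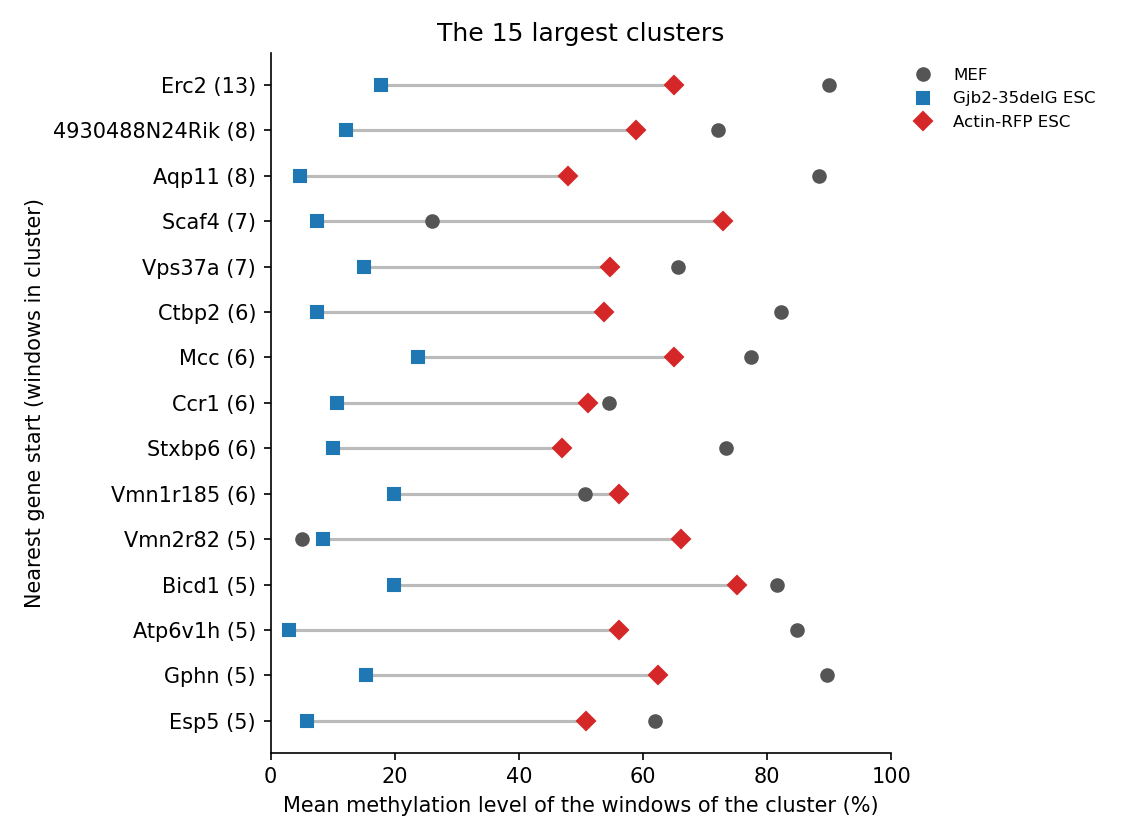
Mean methylation level (x axis, %) of the higher windows in each of the 15 largest clusters in MEF (grey circles), Gjb2-35delG ESC (blue squares) and Actin-RFP ESC (red diamonds), named by the nearest protein-coding gene start with the number of higher windows in brackets. For Vps37a, Mcc and Atp6v1h the start was not known, and the nearest end of the gene span was used. Actin-RFP ESC lies between Gjb2-35delG ESC and MEF in 12 of the 15, and above both at Scaf4, Vmn1r185 and Vmn2r82.

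The largest cluster, 13 of the 18 eligible windows in chr14:27687001-27691000, lay inside Erc2, which encodes a scaffold of the presynaptic active zone. Over all calls of the span, 90.1% of 1075 were methylated in MEF, 19.5% (exact 95% interval 17.1 to 22.1%) of 1009 in Gjb2-35delG ESCs and 59.0% (56.3 to 61.7%) of 1337 in Actin-RFP ESCs. The span was joined from windows chosen for this difference. The intervals give counting error only, and their separation follows in part from the choice. Among the 13 higher windows, the level ran from 4.76 to 41.7% in Gjb2-35delG ESCs and from 50.04 to 87.3% in Actin-RFP ESCs, a separation that the choice of windows favours. Of the other 5 eligible windows of the span, 4 were also higher in Actin-RFP ESCs, with differences from -2.24 to 27.9 points over the 5. Flanking windows averaged 45.6% and 45.4% for Gjb2-35delG and Actin-RFP ESCs. Over the 15 largest clusters the mean difference of the flanks, 5 kb on either side, ran from -20.1 to 10.3 points and was below 0 in 12.

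Near Aqp11, a water channel of intracellular membranes, 8 of 10 windows in chr7:97754201-97756200 were higher windows. Their mean was 88.3% for MEF, 4.79% for Gjb2-35delG ESCs and 47.8% for Actin-RFP ESCs, with 21 to 121 calls a window. The cluster at chr17:14094601-14097200, nearest to 4930488N24Rik, held 8 of 9 windows at 72.0%, 12.1% and 58.9%. A smaller one of 3 windows stood beside it at chr17:14100001-14101200, with 58.9%, 6.83% and 51.8%.

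Clusters inside genes were also found in Ctbp2, a transcriptional corepressor (82.1%, 7.43% and 53.7% in MEF, Gjb2-35delG ESCs and Actin-RFP ESCs), and Bicd1, an adaptor of the dynein motor (81.6%, 19.8% and 75.1%). Gphn, the scaffold gephyrin of inhibitory synapses, held 5 windows at 89.5%, 15.4% and 62.4%, and Atp6v1h, a subunit of the vacuolar proton pump, held 5 at 84.8%, 2.93% and 56.2%. Mcc held 6 at 77.3%, 23.7% and 65.0%. The cluster inside Mtmr7, a myotubularin-related phosphatase, stood at 65.7%, 14.98% and 54.6%. It was closest to an end of the span of Vps37a, a subunit of the ESCRT-I sorting complex, whose start was not known. In each of these 6, Actin-RFP ESCs lay between the other libraries.

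Other named clusters were outside protein-coding genes. Those nearest to Stxbp6, at 361 kb, and Esp5, of the exocrine-gland secreted peptides, at 9.79 kb, held 6 and 5 windows. Their levels in MEF, Gjb2-35delG ESCs and Actin-RFP ESCs were 73.3%, 10.05% and 46.97% at the first and 62.0%, 5.91% and 50.7% at the second. Near Ccr1, a chemokine receptor, 6 of 10 windows in chr9:123927601-123929600, inside the noncoding transcript Gm51701, stood at 54.5%, 10.6% and 51.1%. That span held 2323 calls in Actin-RFP ESCs against 712 in MEF and 721 in Gjb2-35delG ESCs, and 1 window reached 906. The Atp6v1h span likewise held 687 calls against 203 and 154. The part of this unequal coverage in the levels was not tested.

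In a few clusters Actin-RFP ESCs stood above both other libraries. Near the vomeronasal receptor gene Vmn1r185, 6 of 14 windows of chr7:26592401-26596200 had means of 50.6% for MEF, 19.9% for Gjb2-35delG ESCs and 56.1% for Actin-RFP ESCs. Near Scaf4, an RNA-binding factor of transcript termination, all 7 windows of chr16:90297801-90299200 were higher windows. Their levels ran from 19.1 to 39.8% for MEF, 1.92 to 20.6% for Gjb2-35delG ESCs and 62.0 to 84.5% for Actin-RFP ESCs, on 10 to 169 calls. Actin-RFP ESCs did not overlap MEF there, a separation that the choice of windows favours. Adjoining windows of 1 library are not replicates. Over all eligible windows Actin-RFP ESCs were below MEF in 96.5%. A second cluster at chr16:90291201-90292200 held 4 windows at means of 59.4%, 4.03% and 72.4%, and its window chr16:90291201-90291400 had the largest difference of all higher windows, 83.9 points (1.82% on 98 calls and 85.7% on 28).

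The 5 windows of chr10:79321801-79322800, nearest to the vomeronasal receptor gene Vmn2r82, were all higher windows. MEF read 0 to 7.68% there, Gjb2-35delG ESCs 0 to 21.2% and Actin-RFP ESCs 49.8 to 75.6%, on 22 to 208 calls. Flanks in MEF, Gjb2-35delG ESCs and Actin-RFP ESCs averaged 72.9%, 67.1% and 47.01%, so this was an unmethylated stretch in the first 2 libraries within methylated surroundings. Clusters of 3 or 4 windows with a MEF mean below 20% lay near Ear10, an eosinophil-associated ribonuclease (3.16%, 8.92% and 56.7%), Fcgr3, an immunoglobulin receptor (15.9%, 4.98% and 44.5%), and Olig1, a transcription factor of oligodendrocytes (16%, 4.28% and 43.4%). At Fcgr3 a second cluster, chr1:171048001-171050200, was methylated in MEF (83.5%, 9.69% and 49.6%).

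Of the 84 higher windows below 20% in MEF, 57 were single, 17 belonged to clusters of 3 or more and 15 overlapped a promoter. Over all 84 the medians were 9.51% for MEF, 6.68% for Gjb2-35delG ESCs and 47.3% for Actin-RFP ESCs. They held a median of 6 CpG cytosines, against 2 for all higher windows, and 29 of the 84 had at least 30 calls in each library. The promoter share and CpG count of all 156341 eligible windows below 20% in MEF are not given here. Neither value is therefore read as a trait of these 84. Among the 15 were the promoter windows of Hoxd9, of Pik3r4, a regulatory subunit of the class III PI3-kinase (2.86%, 1.70% and 40%), of Prlhr, a neuropeptide receptor (9.04%, 7.76% and 44.4%), and of the zinc finger gene Zfp950 (9.09%, 0% and 35.0%).

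CpG content is given as the deposited number of covered CpG cytosines of both strands, so 1 fully covered CpG pair counts as 2. In 10058 windows inside a promoter sequence, the deposited number was at most the number of both strands in 96.3%. It equalled that number in 62.4% and that of 1 strand in 3.41%. Of the CpG cytosines of both strands in these windows 82.7% were covered, so a value of 2 need not be 1 pair. The higher windows had a median of 2, against 4 for all eligible windows, and 1417 (51.1%) had exactly 2, compared with 33.8% of eligible windows. With 10 or more there were 193 (6.96%), compared with 10.01%. Among windows with at least 30 calls the order was the other way: 126 of the 325 (38.8%) had 10 or more, against 21.8% of eligible windows of that depth. Few cytosines and few calls go together in these files, and their parts were not separated.

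By position, 54 higher windows (1.95%) overlapped a promoter, 1220 (44%) lay in the body of a protein-coding gene, 220 (7.93%) in another gene and 1279 (46.1%) between genes. Eligible windows had 2.41%, 45.2%, 8.10% and 44.3%. With at least 30 calls, 59.4% of the higher windows lay between genes and 28.6% in protein-coding bodies, against 38.6% and 49.98% of eligible windows. Of these deep higher windows 52.6% had another higher window within 1000 bp, so they are not separate places. The median distance to a protein-coding start was 36.5 kb, compared with 47.7 kb for eligible windows. With at least 30 calls it was 34.8 kb against 36.6 kb, and 16.3% of the higher windows lay within 10 kb of a start against 22.8%.

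At promoters, 51 of 25258 genes with an eligible promoter window (0.202%) had a higher window, 28 of them protein-coding, and only Eps8l1, Klhl7 and 4930558C23Rik had more than 1. Over all eligible windows of these promoters the mean was lower in Actin-RFP ESCs for 28 of the 51 genes and higher for 23, and it split 14 to 14 among the protein-coding genes. These means include the higher windows themselves, so their direction follows in part from the choice. On the same means, the promoters of the 3 genes with more than 1 higher window were higher. The mean difference was 21.9 points at 4930558C23Rik and 27.3 points at Klhl7. At Eps8l1 it was 3.25 points over 9 windows, of which 5 were higher in Actin-RFP ESCs. For Slc1a2, a glutamate transporter, 1 window went from 61.5 to 100% while the mean of its 6 promoter windows went from 71.7 to 54.9%. For Ptprc, the leukocyte antigen CD45, the window went from 16.7 to 51.5% and the mean of 5 from 52.1 to 38.8%. Hoxa13 shared its 1 higher window (13.5%, 24.6% and 57.2%) with the neighbouring transcript Hottip. No measured gene of the lists of imprinted (38 genes), germline (19), pluripotency (14), formative (6), trophoblast (11) or fibroblast (9) genes had a higher window in its promoter. The share over all genes, 0.202%, is so low that lists of this size hold little information on it.

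Among gene families, the nearest start belonged to a zinc finger gene named Zfp for 63 higher windows (2.27%, compared with 1.47% of eligible windows), to an olfactory receptor gene for 38 (1.37%, compared with 0.924%) and to a vomeronasal receptor gene for 23 (0.829%, compared with 0.559%). These are not independent places, since 11 of the 23 vomeronasal and 8 of the 63 Zfp windows were in 2 clusters each. Of the 38 olfactory windows, 22 lay in 3 bins of chromosome 2, part of 8 bins described below, and without the 8 bins the share was 0.644% (16 windows), below the 0.825% of eligible windows. None lay nearest to a gene of the protocadherin clusters, the prolactin family or the keratins, which were nearest to 0.0399%, 0.0656% and 0.0668% of eligible windows.

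In the RFP cells of E4.0 blastocysts, 10 of the 15 genes nearest to the largest clusters were in the expression table, and 3 were detected in at least 28 of the 55 cells, where 27.8% of all 13927 genes were. These were Ctbp2, in 49 cells at a mean of 135 CPM, Atp6v1h, in 38 at 105 CPM, and Scaf4, in 31 at 18.99 CPM. Erc2 was detected in 8 cells. Of the 16 protein-coding genes in the table with a higher window in the promoter, 2 passed this limit, Ndufb7 of respiratory complex I and the ring finger gene Rnf44. The methylation of these cells was not measured.

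Along the genome, the higher windows were uneven on the scale of megabases. Their share of eligible windows ran from 0.0271% on chromosome 8 to 0.0790% on chromosome 3, while the median difference ran only from -26.8 to -30.4 points between chromosomes. Of the 310 on chromosome 3, 42 lay at 15 to 20 Mb (0.440% of eligible windows) and 110 at 75 to 85 Mb (0.484%), stretches described below. In bins of 5 Mb the median share was 0.0342%. The bin at 170 to 175 Mb of chromosome 1, with the clusters near Fcgr3, Cd84 and Slamf6, held 34 higher windows (0.314%), and that at 90 to 95 Mb of chromosome 16, with those near Scaf4 and Olig1, held 30.

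**Figure D5:**
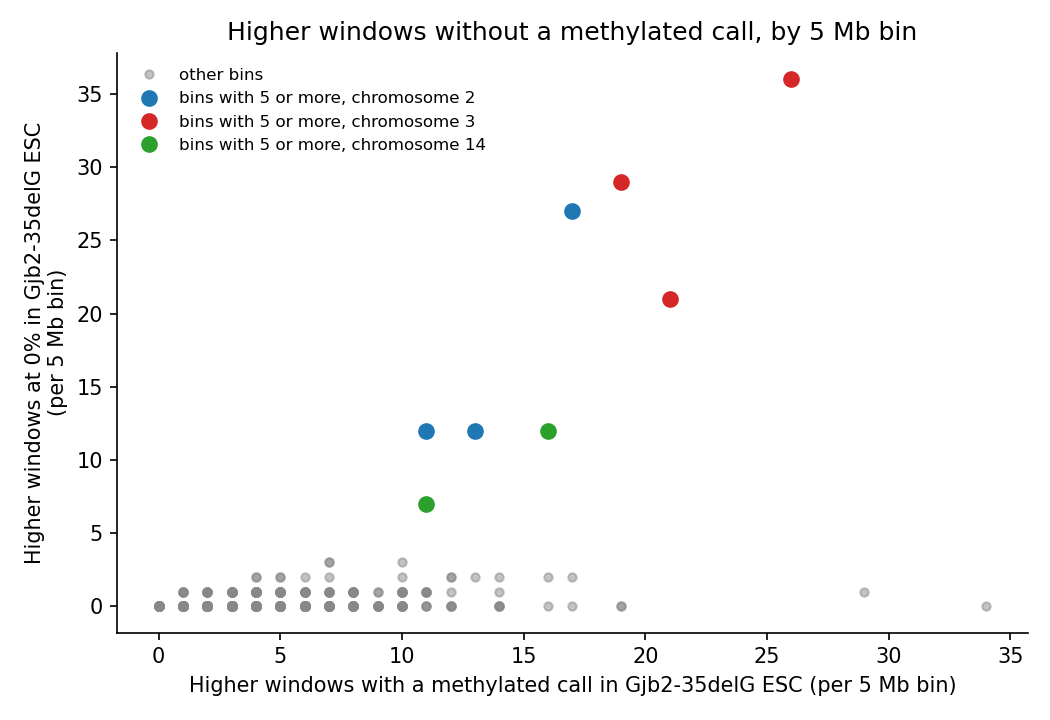
Number of higher windows per 5 Mb bin without a methylated call in Gjb2-35delG ESC (y axis) against the number with one (x axis), for the 488 bins with at least 5000 eligible windows. The 8 coloured bins, on chromosomes 2, 3 and 14, hold 7 to 36 windows without a methylated call, and the other bins hold at most 3.

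A distinct group had no methylated call at all in Gjb2-35delG ESCs. Of the 2773 higher windows 286 (10.3%) were at 0% there, and 156 of the 286 (54.5%) fell in 8 of the 502 bins, which hold 1.41% of eligible windows. The 8 bins, chosen after the data were seen, form 4 stretches. They lie at 75 to 90 Mb of chromosome 2 (51 windows at 0%), 15 to 20 Mb of chromosome 3 (21), 75 to 85 Mb of chromosome 3 (65) and 110 to 120 Mb of chromosome 14 (19). In the other 494 bins there were none in 383 and 1 to 3 in 111.

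Of the 156 windows at 0% in these stretches, 18 (11.5%) had another higher window within 1000 bp, compared with 13.7% of all higher windows. They had a MEF median of 90.0% and an Actin-RFP median of 44.97%, and 128 of the 156 (82.1%) held 1 or 2 covered CpG cytosines. The median number of Gjb2-35delG calls was 15. Windows next to them had medians of 71.7% and 40.9% for Gjb2-35delG and Actin-RFP ESCs, with a median difference of -22.7 points, so the general loss held beside them. Over all eligible windows of the 8 bins the median difference was -30.5 points, compared with -28.9 elsewhere. The 130 windows at 0% outside the bins had neighbours at 19.5% in Gjb2-35delG ESCs.

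The window chr3:79113601-79113800, inside Rapgef2, an exchange factor for Rap GTPases, read 93.8% on 16 calls for MEF, 0% on 22 for Gjb2-35delG ESCs and 79.2% on 18 for Actin-RFP ESCs. A second one in that gene, chr3:79118401-79118600, read 89.2% on 29 calls, 0% on 21 and 76.3% on 25. On chromosome 2 the window chr2:81291401-81291600, 631 kb from the start of Nup35, a nuclear pore protein, read 89.3%, 0% and 81.2% on 21, 11 and 16 calls. These 3 were among the 6 largest differences of all higher windows, and each held 2 covered CpG cytosines.

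Taking each library in turn, 262 windows were at 0% in Gjb2-35delG ESCs and at least 30% in both other libraries, 155 of them (59.2%) in the 8 bins. The same count gave 669 with MEF at 0%, 5 of them (0.747%) in the bins, and 40103 with Actin-RFP ESCs at 0%, 679 of them (1.69%) in the bins. Since the 8 bins were chosen by zeros of Gjb2-35delG ESCs, those shares follow from the choice. Taking the 8 fullest bins of each library instead, they held 59.2% of such windows for Gjb2-35delG ESCs, 55 of 669 (8.22%) for MEF and 2041 of 40103 (5.09%) for Actin-RFP ESCs, on 1.41%, 1.86% and 1.16% of eligible windows. The files used hold no genotypes, and the part of sequence differences between the lines, which bisulfite calls cannot tell from lost methylation, was not tested.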

How the data were processed

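Genomic DNA of MEF, Gjb2-35delG ESCs and Actin-RFP ESCs was bisulfite-treated and sequenced as 1 library each, per the labels and the design text. The authors deposited, for each 200 bp window, a methylation level as a fraction (here printed as percent), counts of methylated and unmethylated calls, and a count of CpG cytosines. The build is mm10 per the submitters' processing notes, with the aligner and methylation caller not given in the sources used here. Single-cell expression values were deposited as a signal, reads divided by 1 factor per cell by the authors, and were scaled here to CPM, reads relative to all reads of the cell.

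Windows with at least 10 calls in each library were eligible. The level is the deposited fraction, which can differ from methylated over all calls of the window, with no further normalization and no test. Higher windows were joined where starts were at most 1000 bp apart. Depth was read as the lowest call number of the 3 libraries. Exact 95% binomial intervals treat calls as independent molecules and cover counting error only.

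Gene spans and starts came from RefSeq tables on GRCm38.p6. Of 20665 autosomal protein-coding genes, 16457 had a start in the promoter table, and the other 4208 were placed at both ends of their span. Without a genome sequence, exons and introns were not separated and the planned window sequences were not printed. Named clusters are the 15 with most higher windows. The clustering code was tested on simulated data with Python 3.11.15, numpy 2.4.6, pandas 2.3.3 and scipy 1.17.1. The windows, gene lists and comparisons were chosen with earlier results of these data known.

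Alternatives were a minimum of 5, 20 or 30 calls, pooled calls as the level, and a threshold of 0.2 or 0.4. Others were leaving out windows of most calls (above the 99.9th percentile) and differences relative to windows of the same Gjb2-35delG level. The promoter size and the distance to another higher window were also changed, while the joining distance of clusters was not.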

Additional observations from a re-analysis of the deposited data

How the results depend on the processing

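No paired analysis was possible because each group is 1 library, and no replicate could be left out. Of 83 alternative values, 27 moved by less than counting error or, for the number of higher windows, by less than 1.5 times. With 5 calls there were 9542 higher windows (0.129%), 48.2% of windows were at least 30 points lower, 7.26% had another within 1000 bp, the MEF median was 84.5% and the neighbour difference -18.2 points. With 20 calls these were 642 (0.0160%), 44.6%, 31.2%, 83.3% and 13.8 points, a change of direction, with a median of 6 CpG cytosines and 2.80% at promoters. With 30 calls they were 325 (0.0119%), 42.6%, 39.1%, 82.9%, 23.4 points (also turned), 8 cytosines and 2.77%. The fewer calls are asked for, the more of the higher windows are shallow. Neighbours here include other higher windows. With pooled calls the shares higher and lower were 0.0398% and 47.6%, and without the windows of most calls 47.6% were lower. At 0.2 there were 11843 (0.185%), with 70.5% lower, 11.8% near another and -15.3 points beside them, and at 0.4 there were 756 (0.0118%), with 24.96%, 19.2% and -5.96 points. Relative to windows of the same Gjb2-35delG level, 157476 (2.46%) were higher and 2.14% lower, with 27.8% near another, a MEF median of 90.5%, 3 cytosines, 1.25% at promoters and -21.3 points, a set that includes windows of high levels. Promoters of 2000 bp before to 1000 bp after a start took in 3.97%. Another higher window was within 200 bp of 8.73% and within 5000 bp of 17.4%. Of the alternatives chosen after seeing the data, leaving out the 8 bins gave 0.0394% higher and 47.5% lower, and a minimum of 4 CpG cytosines gave 1119 (0.0277%), 44.3% lower, 21.9% near another, a MEF median of 84.2%, 5 cytosines, 2.86% at promoters and 0.912 points beside them, a change of direction. At 10 calls a level moves in steps of several points, so single shallow windows carry little weight.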
